A study of Oryza sativa with 46 samples.

Results

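The salt response of BRRI dhan 29, a high-yielding indica rice variety from Bangladesh that is susceptible to salinity, was measured in whole seedlings on one-color Agilent rice oligo microarrays. The arrays were chosen by the genotype and treatment on their labels, which gave 5 of the 46 arrays of the series: 2 from seedlings under 120 mM NaCl (replicates 1 and 2) and 3 from unstressed seedlings at 0 mM (replicates 1, 2 and 3). All seedlings were grown in hydroponic culture and harvested at 16 days of age, the stressed ones after 48 h of salt, and each array holds the RNA of 1 seedling. Root and shoot were extracted together, so a change of a transcript within cells and a change in the share of an organ cannot be told apart. The series holds 7 other genotypes, of which the cultivated ones Pokkali, PSBRc50, IR 58, Banikat and Nipponbare were used for comparison. The others, the wild species Oryza latifolia and O. rufipogon, entered the normalization, the label check and the spread of the test. Pokkali is a salt-tolerant landrace.

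Salt stress lowers the water potential around the root and loads the shoot with Na+. Abscisic acid (ABA) accumulates in such plants. It binds receptors that inhibit the clade A protein phosphatases 2C (PP2C), which releases SnRK2 kinases to activate bZIP transcription factors on ABA-responsive genes. Dehydrins and other late embryogenesis abundant (LEA) proteins, hydrophilic proteins of drying seeds and water-stressed seedlings, are among the best known of these genes. Ion balance depends on other proteins, among them HKT sodium transporters, Na+/H+ exchangers of vacuole and plasma membrane, and potassium channels.

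Several arrays went against their labels. For each array the average profile of all other arrays was taken per labelled genotype and correlated with it. The median of each probe was subtracted first, and only probes with a value on every array were used. Of the 46 arrays 38 were closest to the genotype on the label. BRRI dhan 29 at 0 mM replicate 2 was not: across probes its correlation with the other BRRI dhan 29 arrays was 0.00625, against 0.416 with IR 58. The array labelled IR 58 at 0 mM replicate 2 correlated at 0.693 with BRRI dhan 29 and at −0.0385 with IR 58. The remaining 4 arrays of BRRI dhan 29 correlated best with their own genotype, at 0.319 to 0.550. In 120 mM replicate 1 the margin was narrow, with 0.319 for BRRI dhan 29 and 0.290 for IR 58. Each of these profiles, averaged by label, included the 0 mM replicate 2 array that resembled the other genotype. The values below therefore come from 120 mM replicates 1 and 2 and from 0 mM replicates 1 and 3, and 0 mM replicate 2 is given beside them. The arrays labelled Banikat and Nipponbare also ran against their treatment labels in replicates 1 and 2, the ones in the fit. The dehydrin RAB21 (Os11g0454300) stood at log2 signals of 6.27 and 7.58 on the Banikat arrays labelled 120 mM (replicates 1 and 2), against 16.21 and 17.71 on those labelled 0 mM. On the Nipponbare arrays of the same replicate numbers it stood at 13.52 and 7.06 with the label 120 mM, against 17.53 and 17.24 with the label 0 mM. The replicate 3 arrays, which were closer to another genotype and were not in the fit, ran with their treatment labels: RAB21 was at 15.67 at 120 mM, against 7.52 at 0 mM, under the label Banikat, and at 14.87 at 120 mM, against 6.45 at 0 mM, under the label Nipponbare. PSBRc50 at 120 mM replicate 3, also not in the fit, was closest to Banikat (0.805), and its RAB21 was at 4.06, below all 3 PSBRc50 arrays at 0 mM (8.47 to 11.68). On BRRI dhan 29 arrays RAB21 was at 18.01 and 16.72 at 120 mM, against 10.01 and 6.45 at 0 mM. Between 32061 and 32955 of the 42477 probes were well above background on the 4 arrays, and no spot was saturated.

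In the fit, 381 probes (0.897% of the 42477 tested) rose and 161 (0.379%) fell in salt-stressed BRRI dhan 29, 1.28% in all (limma, Benjamini-Hochberg adjusted p of 0.05 or less over all probes). The called probes had median log2 changes of 2.62 upwards and −2.61 downwards, against 0.03 over all probes. A log2 change of 1 is a doubling of the signal. The test takes its spread from the 38 arrays that matched their genotype, which leaves 22 residual degrees of freedom. Arrays of both wild species are among the 38. On those of O. latifolia, 20914 to 23526 of the 42477 probes were well above background. With the 4 BRRI dhan 29 arrays alone, no probe was called, although 4424 had an unadjusted p under 0.05, against 5453 in the main fit. With 0 mM replicate 2 included, 721 probes were called higher and 340 lower. All 542 called probes kept their direction in that fit, and 493 of them were called again. When the arrays that missed their genotype also entered the spread, 45 arrays in all, 2 probes were called higher and 0 lower, with 2290 at an unadjusted p under 0.05. Without 1 of the BRRI dhan 29 arrays, the higher and lower calls numbered 49 and 35 (120 mM replicate 1), 283 and 78 (120 mM replicate 2), 127 and 83 (0 mM replicate 1), or 47 and 33 (0 mM replicate 3).

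Each of the 2 slides that carried these arrays held 1 stressed and 1 unstressed BRRI dhan 29 seedling, so the treatments can be compared within slides. The 2 treatments did not overlap for 541 of the 542 called probes, against 43.1% of all probes tested. Also 541 changed in the same direction on both slides, against 57.5% of all probes. The remaining probe, of Os04g0598500, had a missing value. The probes were called on these same arrays, so both counts follow largely from the selection and are no separate support. With slide as a term of the fit, chosen after seeing the data, 425 probes were called higher and 184 lower. Of the 29 named genes called, 25 were called in that fit. The other 4 were the DHN1-like dehydrin, the papain-type peptidase, actin 66 and the potassium channel described below, with adjusted p of 0.059, 0.0633, 0.0861 and 0.0552 (limma). Across all probes, which are not independent replicates, the changes on the slides correlated at 0.256. In the plot of the changes on each slide, uncalled probes form a broad cloud around 0. Of the called probes, 246 were more than 4-fold higher and 122 more than 4-fold lower in the fit. The other called probes lie nearer to the cloud.

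**Figure D1:**
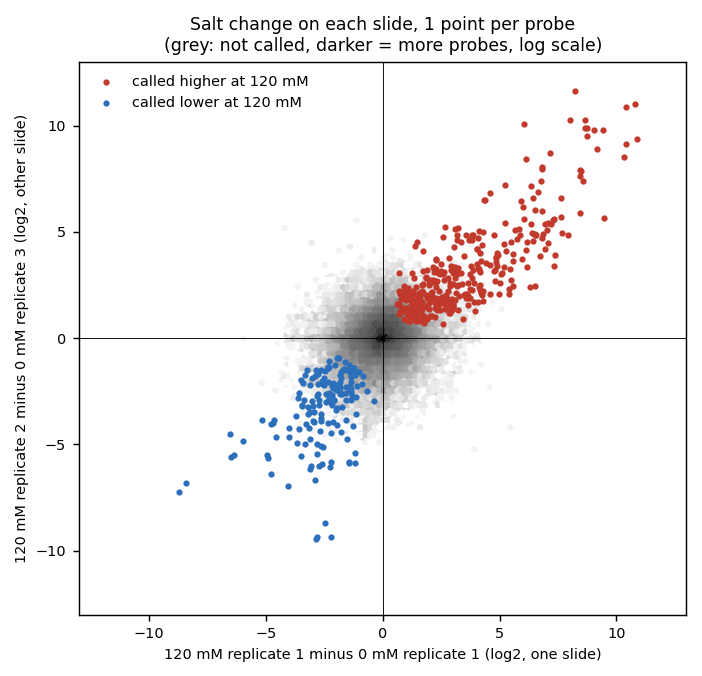
Log2 change between the stressed and the unstressed BRRI dhan 29 seedling of the same slide, 120 mM replicate 1 minus 0 mM replicate 1 on the x axis and 120 mM replicate 2 minus 0 mM replicate 3 on the y axis, 1 point per probe. Red points are the 381 probes called higher, blue points the 161 called lower, and grey shading counts the uncalled probes; the called probes were selected on the mean of both axes.

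Gene names are those that the study's own lists pair with array loci. They cover 3810 of the 29689 loci on the array, and they were picked in the study for their relation to traits on these same arrays, so that they are no random sample. With 1 probe per locus, 263 loci (0.886%) were called higher and 118 (0.397%) lower, 1.28% together. Of the 3810 named loci, 61 (1.6%) were called higher and 17 (0.446%) lower.

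Loci without a name here, given after their values were seen, had still larger changes than any named one: Os11g0181200 and Os11g0453900 rose by 10.90 and 10.66 on the log2 scale (limma adjusted p = 0.00609 and 0.00827). Dehydrins and other LEA proteins made up 6 of the 12 largest rises among named loci that were called. Of 6 named members of the dehydrin and LEA list, 5 rose, against 1.6% of all named loci, and none fell. The median log2 change of the list was 7.48. RAB 16B (Os11g0454200), a dehydrin, had log2 signals of 16.57 and 14.32 at 120 mM, against 6.14 and 5.17 at 0 mM. The groups stood far apart, and its log2 change of 9.79 ± 1.68 (SE, n = 2 arrays each) equals an 884-fold rise (limma adjusted p = 0.00384). Its neighbour by locus number, RAB21 (Os11g0454300), annotated as a water-stress inducible protein, rose by 9.13 ± 1.45 on the log2 scale (limma adjusted p = 0.00233). Both of its 0 mM arrays lay below both 120 mM arrays, although the unstressed seedlings differed by more than 3 log2 units from each other. The left-out array was at 9.95, near the higher of them.

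A group 3 LEA protein (Os05g0542500) reached 16.85 and 15.20 at 120 mM, against 7.83 and 5.41 at 0 mM. All 4 of its probes were called, and the brightest gave a log2 change of 9.41 ± 1.81 (limma adjusted p = 0.00883). A dehydrin similar to DHN1 (Os01g0702500) stood at 10.88 and 10.70 at 120 mM, against 4.84 and 5.09 at 0 mM. Its replicates were close in both treatments, and the log2 change was 5.82 ± 1.46 (limma adjusted p = 0.0449, called for 1 of 3 probes). Embryonic abundant protein 1 (Os05g0349800), a LEA protein of seeds, was well above background on both 120 mM arrays (6.00 and 7.80) and on no 0 mM array (1.63 and 1.32). It was at least 25.2-fold higher at 120 mM (limma adjusted p = 0.0422). For such bounds each array of the dimmer treatment took the higher of its own signal and that array's dimmest signal well above background. Another LEA repeat protein (Os03g0168100), which is not on the list, was likewise above background only in the stressed seedlings, at 9.53 and 9.74, against 3.37 and 1.32 at 0 mM. It was at least 91.6-fold higher (limma adjusted p = 0.0234).

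One dehydrin, COR410 (Os02g0669100), was abundant without salt. Its log2 signals were 16.82 and 15.10 at 120 mM, against 12.85 and 13.99 at 0 mM. The groups did not overlap, but the log2 change of 2.54 ± 0.80 did not pass the test (limma adjusted p = 0.123). Not every LEA annotation moved. Of the 10 loci whose annotation names a LEA protein or dehydrin, 4 rose, against 1.6% of all named loci. Among the other 6, 5 had log2 changes between −0.22 and 1.05.

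**Figure D2:**
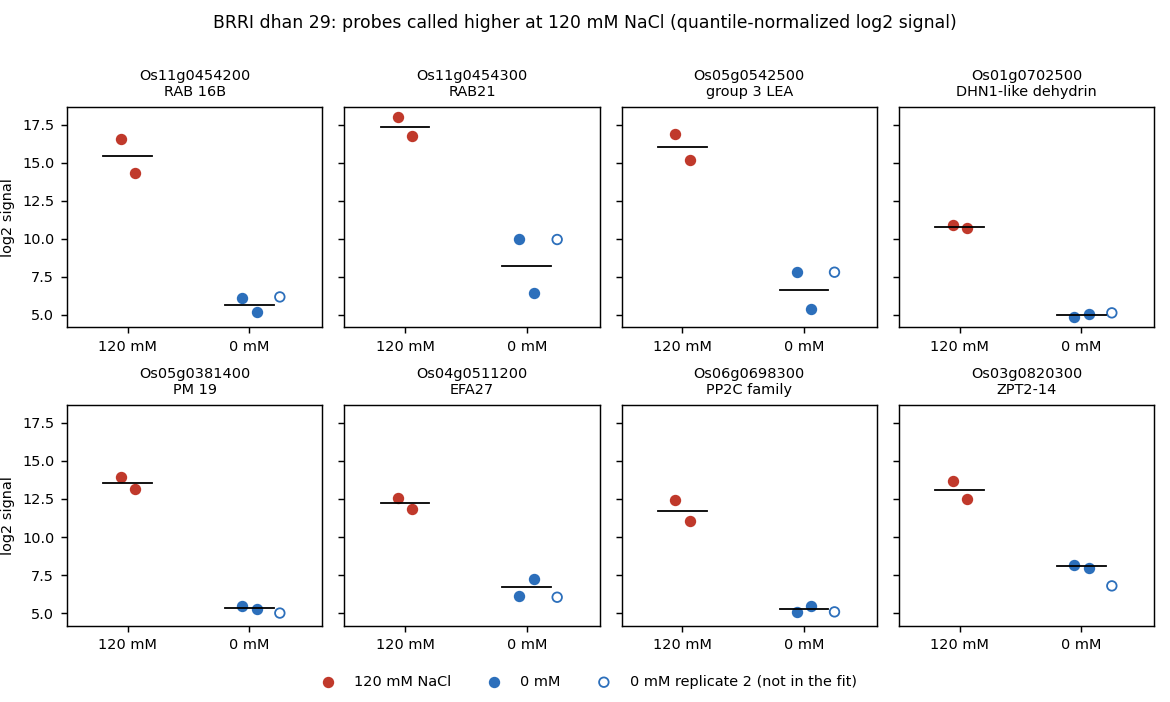
Quantile-normalized log2 signal of 8 genes called higher at 120 mM, for the BRRI dhan 29 arrays at 120 mM (red, left) and at 0 mM (blue, right). Black lines are group means of 2 arrays and the open circle is 0 mM replicate 2, which was left out of the fit; in all 8 genes both 120 mM arrays lie above all 0 mM arrays.

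The ABA-induced plasma membrane protein PM 19 (Os05g0381400) had log2 signals of 13.92 and 13.17 at 120 mM, against 5.45 and 5.25 at 0 mM. The replicates differed by under 1 log2 unit, and the change was 8.19 ± 1.40 (limma adjusted p = 0.00384). EFA27 (Os04g0511200), an ABA-responsive protein with a calcium-binding EF hand, was at 12.57 and 11.85 at 120 mM, against 6.14 and 7.26 at 0 mM. It rose by 5.51 ± 0.75 on the log2 scale (limma adjusted p = 0.000411).

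Of the 3 named clade A phosphatases, 1 rose, against 1.6% of all named loci. That phosphatase (Os05g0572700) was at 9.93 and 8.23 at 120 mM, against 6.12 and 3.63 at 0 mM, a log2 change of 4.21 ± 1.06 (limma adjusted p = 0.0449, called for 1 of 2 probes). Its uncalled probe was not well above background on any array, at means of 2.24 against 2.08. Os03g0268600 was at 13.61 and 12.57 at 120 mM, against 10.94 and 10.21 at 0 mM, and its change of 2.52 ± 0.97 did not pass (limma adjusted p = 0.226). The phosphatase annotated as ABI2 (Os05g0592800) differed by 0.30 ± 0.42, with overlapping groups. A further PP2C family member outside that list (Os06g0698300) had the largest change of the phosphatases. It was at 12.41 and 11.06 at 120 mM, against 5.11 and 5.48 at 0 mM, and rose by 6.44 ± 1.14 on the log2 scale (limma adjusted p = 0.00529).

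No ABA receptors were examined. None of the 3 named genes of ABA synthesis was called. The 9-cis-epoxycarotenoid dioxygenase (Os03g0645900), which cleaves the precursor of ABA, differed by 0.08 ± 0.58 on the log2 scale at this single harvest. Of 6 named SnRK2 kinases none was called, and their median log2 change was 0.11. Closest to the threshold was protein kinase 3 (Os03g0390200), with log2 signals of 12.73 and 11.55 at 120 mM, against 9.79 and 10.09 at 0 mM (change 2.197 ± 0.56, limma adjusted p = 0.0504). The bZIP factor TRAB1 (Os08g0472000), which binds ABA-responsive promoters, differed by 0.57 ± 0.30 (limma adjusted p = 0.444).

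Among transcription factors, the zinc finger protein ZPT2-14 (Os03g0820300) had the firmest rise. Its log2 signals were 13.69 and 12.48 at 120 mM, against 8.18 and 7.98 at 0 mM. Both probes were called, and the change of 5.01 ± 0.67 (32.1-fold) had the lowest adjusted p of the named genes (limma, 0.00036). The 2 named DREB factors, 2 stress NAC factors and 5 HD-Zip factors contained no called locus. Outside these lists, a locus with a no apical meristem (NAM) domain (Os05g0421600), which marks the NAC family, was picked out after its values were seen and rose by 2.73 ± 0.57 on the log2 scale (limma adjusted p = 0.0149). Some differences within the lists were large, as for the HD-Zip list member Os02g0649300, at 10.58 and 7.84 at 120 mM, against 2.89 and 3.00 at 0 mM (change 6.27 ± 1.86, limma adjusted p = 0.0979).

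Further strong rises fell outside the ABA lists. A cold-regulated protein (Os05g0468800) reached 14.22 and 10.90 at 120 mM, against 6.88 and 5.28 at 0 mM (change 6.48 ± 1.42, limma adjusted p = 0.0211). The release factor eRF1 (Os05g0373900), which ends translation at stop codons, was at 12.08 and 11.32 at 120 mM, against 5.25 and 5.36 at 0 mM. Its replicates were close in both groups, and it rose by 6.39 ± 1.03 on the log2 scale (limma adjusted p = 0.00233). A cofilin-type actin-binding protein (Os03g0820500), of a family that severs actin filaments, was at 15.59 and 13.86 at 120 mM, against 8.53 and 9.38 at 0 mM, a change of 5.77 ± 1.25 (limma adjusted p = 0.0192). A locus annotated with a reverse transcriptase domain (Os03g0561400) was above background in the stressed seedlings only, at 7.66 and 7.84, against 3.63 and 3.64 at 0 mM (limma adjusted p = 0.00972). Both 0 mM arrays kept their own signal in its bound, so the bound of 17.3-fold equals the fitted fold.

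Delta 1-pyrroline-5-carboxylate synthetase (P5CS, Os05g0455500), the first enzyme of proline synthesis from glutamate, rose less. It stood at 13.80 and 12.60 at 120 mM, against 11.76 and 11.56 at 0 mM. The change of 1.54 ± 0.37 is a 2.91-fold rise (limma adjusted p = 0.0362, called for 1 of 4 probes). The SalT lectin (Os01g0348900), first known from salt-treated rice, was bright in all seedlings, at 17.11 and 17.01 at 120 mM, against 13.95 and 13.25 at 0 mM. The treatments were separated, but its change of 3.46 ± 1.16 was not called in any of its 5 probes (limma adjusted p = 0.154 for the brightest). The dimmest probe was not well above background on any of the 4 arrays, at means of 1.49 against 1.45. The others changed by 3.19 to 3.46 on the log2 scale.

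Of 28 loci annotated as heat shock proteins 2 rose, against 1.6% of all named loci. Both were of the 70 kDa class of chaperones. Heat shock protein 70 (Os03g0277300) was at 11.66 and 11.14 at 120 mM, against 5.92 and 6.50 at 0 mM (change 5.19 ± 0.91, limma adjusted p = 0.0047). The list's median log2 change was 0.33. Of 4 named small heat shock proteins 3 had log2 changes of 2.53 to 3.08, with adjusted p of 0.201 to 0.236 (limma), and none was called. The glutathione S-transferase GST 26 (Os01g0692000) rose by 2.97 ± 0.51 on the log2 scale (limma adjusted p = 0.00384). Its family conjugates glutathione to reactive compounds. Of 14 loci so annotated GST 26 was the only one called, against 1.6% of all named loci called higher.

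A locus without a name here, Os06g0142500, also given after its values were seen, was not well above background in either stressed seedling and at least 90.3-fold lower there (fitted log2 change −7.97, limma adjusted p = 0.000399). Among named loci the falls were led by a peptidase A1 of the pepsin family (Os12g0583300), an aspartic protease. Its log2 signals were 4.04 and 5.98 at 120 mM, against 12.44 and 12.78 at 0 mM. The log2 change of −7.60 ± 1.36 means a signal 194-fold lower in the stressed seedlings (limma adjusted p = 0.00557). The left-out 0 mM array was at 12.36, close to the other unstressed arrays. A papain-type peptidase (Os01g0348000) was at 6.82 and 4.98 at 120 mM, against 9.54 and 10.97 at 0 mM (change −4.36 ± 1.10, limma adjusted p = 0.0462).

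Expansins loosen the wall and allow cells to enlarge. Of 25 loci so annotated 2 fell, against 0.446% of all named loci, while none rose. Expansin Os-EXPA3 (Os05g0276500) was at 6.86 and 1.34 at 120 mM, against 9.68 and 10.70 at 0 mM. The stressed seedlings differed strongly from each other, only 1 of them being above background, and the log2 change was −6.09 ± 1.46 (limma adjusted p = 0.0356, both probes called). A second locus similar to Os-EXPA3 (Os01g0248900) was at 5.92 and 4.17 at 120 mM, against 7.68 and 8.60 at 0 mM (change −3.10 ± 0.77, limma adjusted p = 0.0417). Of the 25 expansins 21 had changes below 0, against 45.1% of all named loci, with a median of −0.66.

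Class III peroxidases cross-link wall polymers and use hydrogen peroxide. Of 54 loci 2 fell, against 0.446% of all named loci, and the list median was −0.77. The haem peroxidase Os05g0135200 was at 4.79 and 1.54 at 120 mM, against 7.69 and 8.22 at 0 mM (change −4.78 ± 1.01, limma adjusted p = 0.0159). Os03g0368600 was at 4.56 and 3.75 at 120 mM, against 7.598 and 6.71 at 0 mM (change −2.996 ± 0.71, limma adjusted p = 0.0333). On both loci 1 of the 2 stressed seedlings was above background. A locus with a pollen Ole e 1 allergen and extensin domain (Os01g0726100) fell by 4.16 on the log2 scale, and actin 66 (Os12g0641000) by 4.33. Actin 66 was at 5.85 and 6.12 at 120 mM, against 9.88 and 10.75 at 0 mM. The left-out 0 mM array lay between them at 7.41, and with it the adjusted p of actin 66 was 0.0862 (limma) in place of 0.0449.

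**Figure D3:**
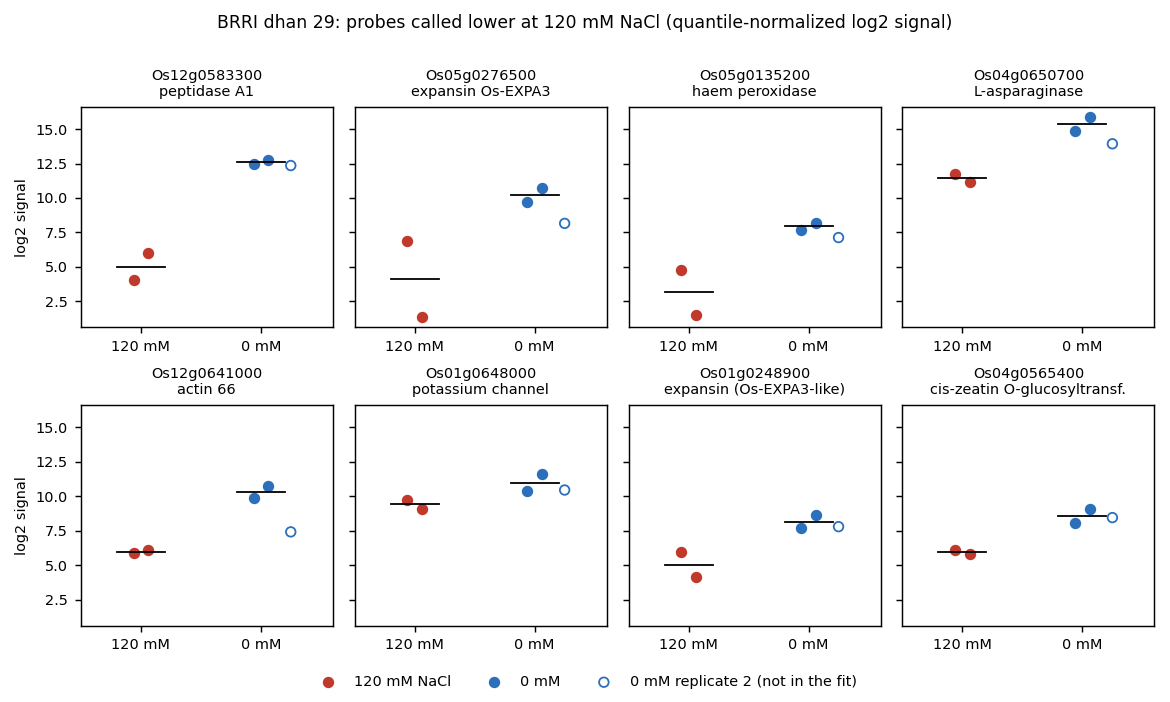
Quantile-normalized log2 signal of 8 genes called lower at 120 mM, for the BRRI dhan 29 arrays at 120 mM (red, left) and at 0 mM (blue, right). Black lines are group means of 2 arrays and the open circle is the left-out 0 mM replicate 2; both 120 mM arrays lie below both 0 mM arrays of the fit in every panel.

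L-asparaginase (Os04g0650700), which frees ammonium from asparagine, was bright in all seedlings, at 11.72 and 11.13 at 120 mM, against 14.84 and 15.89 at 0 mM. It fell by 3.94 on the log2 scale (SE 0.78, limma adjusted p = 0.0102, called for 2 of 4 probes). A cis-zeatin O-glucosyltransferase (Os04g0565400), which conjugates a cytokinin, was at 6.08 and 5.81 at 120 mM, against 8.02 and 9.09 at 0 mM (change −2.61 ± 0.57, limma adjusted p = 0.0204). A MatE family efflux protein (Os08g0562800) was at 8.65 and 9.65 at 120 mM, against 10.93 and 12.65 at 0 mM (change −2.63 ± 0.64, limma adjusted p = 0.0378). The 13 kDa prolamin precursor (Os07g0206500), a seed storage protein, was below background in both stressed seedlings and at least 5.10-fold lower there, but the left-out 0 mM array was also low, at 1.61, and the adjusted p with it was 0.142 (limma).

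Named loci made up 7 of the 8 listed potassium transport genes and 2 of the 5 listed HKT transporters. Of the 8 listed exchanger and SOS pathway genes 3 were named, and listed loci without a name are not covered here. Among the named members of these 3 lists 1 was called, against 0.446% of all named loci called lower. Of 7 named potassium transport genes it was a potassium channel (Os01g0648000) at 9.69 and 9.11 at 120 mM, against 10.37 and 11.60 at 0 mM. It fell by 1.58 on the log2 scale (SE 0.38, limma adjusted p = 0.036, both probes called), that is, its signal was 2.99-fold lower under salt. Neither named HKT transporter was called. The sodium transporter Os06g0701700 was at 6.88 and 5.41 at 120 mM, against 4.62 and 4.64 at 0 mM (change 1.51 ± 1.07, limma adjusted p = 0.636). The cation transporter Os06g0701600 had overlapping groups, at 9.67 and 6.23 at 120 mM, against 7.36 and 8.58 at 0 mM, and its difference ran in opposite directions on the 2 slides. The 3 named Na+/H+ exchangers (Os11g0648000, Os09g0286400 and Os12g0641100) differed by 0.37 ± 0.46, 0.41 ± 0.40 and 0.36 ± 0.29 on the log2 scale, with adjusted p of 0.709 to 0.876 (limma). Named aquaporins, which conduct water, were 2 of 11 listed for the plasma membrane and 4 of 8 listed for the tonoplast. They held no called locus.

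Lists of histones and photosystem subunits had medians below 0 without any call. Of 15 histones, the proteins that package DNA, 14 had log2 changes below 0, with a median of −1.42, and 5 had an unadjusted p under 0.05. All 7 photosystem subunits had changes below 0, with a median of −1.06 and a range of −1.27 to −0.69. Over all loci the median change was 0.03, and 47.6% of all loci and 45.1% of named loci had changes below 0. Organ make-up could be viewed only in part. Of 7 listed leaf markers 2 were named, both among the brightest signals given here, where a change in leaf share may show poorly. A Rubisco leaf marker (Os12g0274700) stood at 16.93 and 17.62 at 120 mM, against 17.84 and 17.38 at 0 mM, and the chlorophyll a-b binding protein 1 (Os09g0346500) at 17.31 and 17.56, against 17.36 and 17.60. The latter was the least changed of the 3 named light-harvesting proteins. All 3 had changes below 0, with a median of −1.15 and a minimum of −1.68. Of these, 2 had an unadjusted p under 0.05 (limma) and none was called. Of the 2 named root markers (6 listed), nicotianamine synthase 1 (Os03g0307300) ranged most, at 15.84 and 7.00 at 120 mM, against 12.58 and 14.71 at 0 mM. Its level followed neither treatment nor slide. The other, a Bet v I allergen family protein (Os12g0555000), was at 13.92 and 11.11 at 120 mM, against 11.04 and 10.54 at 0 mM. The part of organ shares in the results was not tested.

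**Figure D4:**
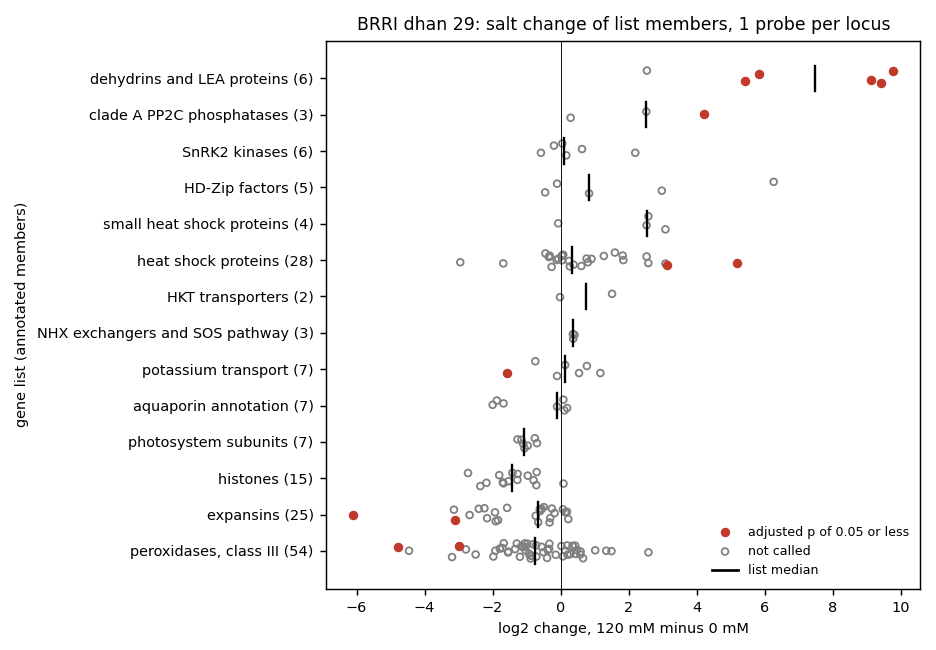
Log2 change between 120 mM and 0 mM in BRRI dhan 29 for the named members of 14 gene lists, 1 point per locus, with the number of members in brackets. Red points have an adjusted p of 0.05 or less, open points were not called and black lines are list medians, which run from 7.48 for dehydrins and LEA proteins to −1.42 for histones.

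Whether BRRI dhan 29 responds differently from other cultivated rice was asked with the difference between its salt effect and the mean salt effect of Pokkali, PSBRc50, IR 58, Banikat and Nipponbare. This difference was called for 87 probes (0.205% of 42477), 68 higher (0.16%) and 19 lower (0.0447%) in BRRI dhan 29 (limma, adjusted over all probes). It rests on the Banikat and Nipponbare arrays described above. Of the 381 probes that rose in BRRI dhan 29, 372 had a change below 0 in Banikat and 369 in Nipponbare, as labelled. When Banikat and Nipponbare were left out, a step taken after their values were seen, 4 probes (0.00942%) were called, 3 higher (0.00706%) and 1 lower (0.00235%), and 866 had an unadjusted p under 0.05. Against Pokkali alone 3 probes (0.00706%) were called, 2 higher (0.00471%) and 1 lower (0.00235%), with 1651 at an unadjusted p under 0.05.

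In Pokkali, PSBRc50 and IR 58 most probes that rose in BRRI dhan 29 had changes of the same sign. Without PSBRc50 at 120 mM replicate 3 and IR 58 at 0 mM replicate 2, which missed their genotype, PSBRc50 had 2 arrays at 120 mM and 3 at 0 mM, and IR 58 had 3 at 120 mM and 1 at 0 mM, so that every IR 58 change below rests on 1 unstressed array. Of the 381 risen probes of BRRI dhan 29, 359 (94.2%) had a change above 0 in Pokkali, 371 (97.4%) in PSBRc50 and 375 (98.7%) in IR 58, against 44.4%, 46.9% and 48.9% of all probes. Their median log2 change was 2.62 in BRRI dhan 29, where they were selected, 1.15 in Pokkali, 2.24 in PSBRc50 and 2.02 in IR 58. The probes that fell had median changes of −2.61 in BRRI dhan 29, −0.81 in Pokkali, −1.83 in PSBRc50 and −1.65 in IR 58. Selection makes the BRRI dhan 29 medians larger in size, so their distance from the others is no measure of a difference.

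RAB 16B changed by 9.79 in BRRI dhan 29, 4.60 in Pokkali, 8.11 in PSBRc50 and 9.60 in IR 58 on the log2 scale. Its difference from Pokkali, 5.19 ± 2.16, did not pass (limma adjusted p = 1.00). ZPT2-14 changed by 5.01 in BRRI dhan 29, 3.24 in Pokkali, 5.31 in PSBRc50 and 5.94 in IR 58. Expansin Os-EXPA3 changed by −6.09 in BRRI dhan 29, −1.16 in Pokkali, −1.08 in PSBRc50 and −1.67 in IR 58, and the difference from these 3 was −4.79, also not called.

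**Figure D5:**
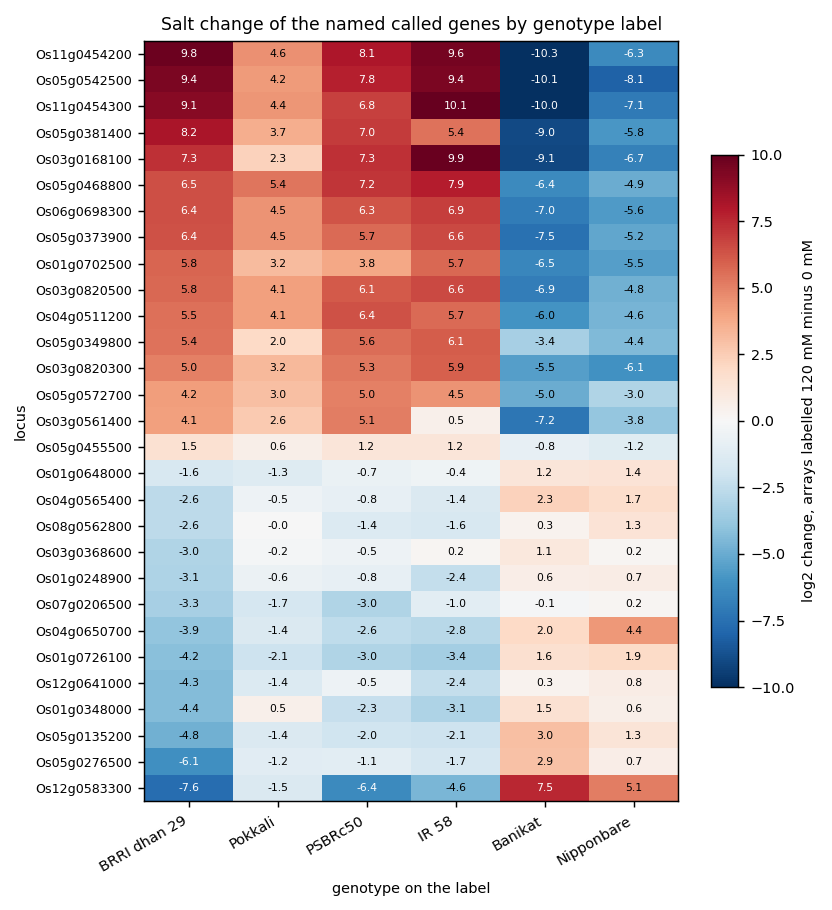
Log2 change between arrays labelled 120 mM and 0 mM for the 29 named genes called in BRRI dhan 29 (rows, ordered by that change), in BRRI dhan 29 and 5 other cultivated genotypes (columns, by label). Red is higher and blue lower with the label 120 mM; the columns labelled Banikat and Nipponbare run opposite to the other 4 in most rows.

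The 4 probes called against Pokkali, PSBRc50 and IR 58 were dim, belong to loci without a name here, and are given because so few were called. Os02g0799400 was at 4.21 and 4.45 at 120 mM, against 1.29 and 1.26 at 0 mM, above background only in the stressed seedlings, and at least 4.79-fold higher. Its mean log2 change in the other 3 genotypes was −0.01, and the difference was 3.07 ± 0.38 (limma adjusted p = 0.000872). Os04g0598500 rested on 1 unstressed array, the other value being an outlier spot, with 5.06 and 3.79 at 120 mM, against 1.50 at 0 mM replicate 3. Os11g0214400 was at background in the stressed seedlings (1.36 and 1.368), against 4.06 and 5.72 at 0 mM, and was at least 4.54-fold lower. The left-out 0 mM array was at 2.24. Os02g0210600 was not well above background on any of the 4 arrays, at 3.48 and 3.82 at 120 mM, against 1.59 and 1.92 at 0 mM, and has no fold. The left-out 0 mM array was at 3.61, within the range of the stressed seedlings, and with it the adjusted p of the salt effect was 0.148 (limma).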

How the data were processed

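Per the file headers, the deposited scanner files hold background-subtracted signal intensity per spot (gProcessedSignal, Agilent Feature Extraction 10.7.3.1). Processed log2 values deposited by the authors served as an alternative. The log2 intensities of non-control spots were quantile-normalized over all 46 arrays. Outlier spots (0.0562% of probe values) were dropped and spots of a probe averaged, which gave 42477 probes. A probe was well above background where at least a 0.5 share of its spots was so flagged. Limma 3.58.1 (R 4.3.3) fitted group means to the 38 arrays closest to their labelled genotype. The contrasts were the salt effect and its difference from 5 cultivated genotypes. The scripts were tested on simulated data. A locus is represented by its brightest probe over all arrays. Named genes are the 12 largest rises and falls among annotated, called loci, the list members called (for dehydrins, SalT, HKT, exchangers, proline and PP2C also those not called), and the 6 largest called differences per direction; others in the text were chosen after their values were seen. The members and lists were chosen with earlier results of these data known. With 2 arrays a group, precision is limited, and an exact permutation test could not go below p = 0.333. Promoter motifs were not searched.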

Additional observations from a re-analysis of the deposited data

Results flagged for a closer look

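For 8 named genes the salt effect of BRRI dhan 29 differed from the mean of the other 5 cultivated genotypes by the test of that difference (limma adjusted p of 0.0454 or less). The differences on the log2 scale were 8.65 for RAB 16B (Os11g0454200), 8.30 for RAB21 (Os11g0454300), 7.93 for PM 19 (Os05g0381400), 5.58 for eRF1 (Os05g0373900), 4.69 for the reverse transcriptase domain locus (Os03g0561400), 4.41 for ZPT2-14 (Os03g0820300), 4.39 for EFA27 (Os04g0511200) and −7.64 for peptidase A1 (Os12g0583300). Against Pokkali, PSBRc50 and IR 58 alone, the differences of these genes were 2.35, 2.03, 2.83, 0.81, 1.39, 0.18, 0.11 and −3.46 in the same order, and none was called. In all 8, the changes labelled Banikat and Nipponbare ran opposite to that of BRRI dhan 29.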

How the results depend on the processing

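The 542 called probes kept their direction wherever they had a value, except 2 that turned under a replicate block within genotype; the filter on dim probes tested 526 of them, and 1 had no value without 0 mM replicate 3. Counts of calls moved more. Probes called higher, lower and for the difference numbered 721, 340 and 233 with 0 mM replicate 2, and 2, 0 and 2 when 45 arrays shared the spread, where 2290 probes had an unadjusted p under 0.05. With the BRRI dhan 29 arrays alone, or normalized alone, 0 were called higher and 0 lower (unadjusted 4424 and 4633). The replicate block within genotype gave 168, 78 and 142. The replicate number as a block gave 46 differences and left 10 of 29 named calls without a call; 75th percentile scaling gave 54, slide as a random block 141, and the other genotypes without Banikat and Nipponbare (added after seeing the data) 4. The labels do not say that a number marks a pair. Deviations of the number 1 arrays, which share a slide, correlated at r = 0.114, and those of number 2 at 0.00791, a value that rests on 0 mM replicate 2 and so leaves pairing unsettled. Deviations of 120 mM replicate 2 and 0 mM replicate 3, which share the other slide, correlated at r = 0.0855. Leaving out single BRRI dhan 29 arrays gave 47 to 283 probes higher, 33 to 83 lower and 19 to 73 differences, with the fewest higher without 0 mM replicate 3 and the next fewest, 49, without 120 mM replicate 1. Where 1 array was left in a group, it was assumed to vary like the others. Under all 4 omissions eRF1, EFA27 and ZPT2-14 stayed called, alone among the 29. Counting every probe of list members gave 19 calls in place of 9. Genes that were not called changed sign: Os05g0592800 lay between −0.18 and 0.77 over the omissions and at −0.37 on one slide, Os12g0641100 at −0.14 on that slide, and Os06g0701600 between −1.74 and 1.70 over the omissions, at 0.33 with 0 mM replicate 2, 0.034 with normexp correction, 0.81 with the block within genotype and 2.32 on the other slide.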
